A study of Mus musculus with 4 samples.

Results

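The genes that encode collagen chains were followed in mouse bone marrow stromal cells (BMSCs) with and without Cre. They were the messenger RNA genes of the count table whose symbol is Col, a type number, the letter a and a chain number. The rule found 44 of 44788 genes in the table. It used no measured value, but it was chosen with earlier results of these data known. The cells came from Setd2 fl/fl mice of the strain C57BL/6J, in which loxP sites flank part of Setd2, the gene of a histone methyltransferase that marks the bodies of transcribed genes. All cells were at passage 2, had received a lentivirus and were kept for 4 days under 2 µg/ml puromycin. The virus carried GFP in the control group and Cre recombinase, which deletes the floxed part, in the other group, with 2 libraries each. Separate animals or cultures are not named for the libraries of a group, so the p-values below cover the spread of these libraries alone, and that spread may be technical. With GFP virus as the control, deletion of Setd2 and the presence of Cre cannot be told apart.

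Collagens are matrix proteins in which 3 chains wind into a triple helix. Fibrillar collagens form the cable-like fibrils of bone, skin and cartilage, and type I, built from Col1a1 and Col1a2, is the main protein of bone matrix. Basement membrane collagens (type IV) form sheets, beaded collagens (type VI) form microfilaments around cells, and FACITs, the fibril-associated collagens with interrupted triple helices, sit on the surface of fibrils. Stromal cells of the marrow can give rise to bone-forming osteoblasts, whose matrix is mostly type I collagen.

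Bases upstream of the transcription start are shown for 4 of the chains whose counts differed between the groups: 3 that were higher in Cre (Col1a2, Col3a1 and Col6a3) and 1 that was lower (Col11a1). They are from the RefSeq promoter table of GRCm38.p6, which matched 35 of the 44 genes with 38 start sites, and motifs were searched in the 250 bases before each such start. Of the windows shown, the start sites of Col11a1 and Col6a3 in that table lie 61 and 30 bases inside the RefSeq extent of the gene, so only the 189 and 220 bases before the gene's outermost start are printed, 5′ to 3′ on the strand of the gene. Capitals mark CCAAT boxes (CCAAT or ATTGG), GC boxes (GGGCGG or CCGCCC) and TATA boxes (TATAAA or TTTATA), and no marked motifs overlapped. The printed bases of Col1a2 lie at chr6:4505368-4505617 (plus strand), Col3a1 at chr1:45311288-45311537 (plus), Col6a3 at chr1:90844002-90844221 (minus) and Col11a1 at chr3:114030290-114030478 (plus).
Col1a2: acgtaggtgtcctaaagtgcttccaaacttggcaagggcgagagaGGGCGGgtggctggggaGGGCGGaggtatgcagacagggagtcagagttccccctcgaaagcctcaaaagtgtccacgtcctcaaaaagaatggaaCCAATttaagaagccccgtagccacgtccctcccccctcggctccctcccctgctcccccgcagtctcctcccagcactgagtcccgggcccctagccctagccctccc
Col3a1: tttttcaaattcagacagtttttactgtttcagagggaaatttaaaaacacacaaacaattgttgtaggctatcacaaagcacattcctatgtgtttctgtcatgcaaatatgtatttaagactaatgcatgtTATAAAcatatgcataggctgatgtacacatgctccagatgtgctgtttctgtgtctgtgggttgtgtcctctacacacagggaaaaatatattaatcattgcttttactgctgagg
Col6a3: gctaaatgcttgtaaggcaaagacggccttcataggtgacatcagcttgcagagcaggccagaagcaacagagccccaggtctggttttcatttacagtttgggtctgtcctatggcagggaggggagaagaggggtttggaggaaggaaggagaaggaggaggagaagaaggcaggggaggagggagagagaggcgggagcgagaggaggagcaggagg
Col11a1: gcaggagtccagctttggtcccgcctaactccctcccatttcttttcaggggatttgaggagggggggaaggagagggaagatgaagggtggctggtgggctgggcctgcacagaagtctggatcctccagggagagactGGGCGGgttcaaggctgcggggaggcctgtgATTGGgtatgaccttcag
The Col1a2 window held 1 CCAAT box that began 109 bases before the start and 2 GC boxes. Col11a1 held 1 CCAAT box in the reverse direction, 79 bases before the start of the table, and 2 GC boxes, of which 1 is in the printed part. Col3a1 held 1 match to the TATA box sequence, 117 bases before the start, and Col6a3 held none of the 3 motifs in this window. Motifs were matched by sequence alone, whatever their position in the window. A CCAAT box was found in 13 of the 38 windows of collagen chain genes, against 33.85% of the 32851 windows of the table, a GC box in 22 (32.74% of the table) and a TATA box in 5 (12.37%). Some of the 38 windows lie wholly inside the RefSeq extent of their gene, among them those of Col15a1 and Col19a1. The windows of Col6a2 overlap each other. With 1 window from a chain that was lower, higher and lower chains cannot be compared by these motifs.

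Libraries held between 12371994 and 14315903 counts. Setd2, the targeted gene, went from 1400 and 1250 counts with GFP to 551 and 468 with Cre. Reads outside the floxed part are counted too, and the source of the counts that remained was not tested. GFP replicate 2 stood apart: Rn18s-rs5, which encodes 18S ribosomal RNA, accounted for 7.45% of its counts and for 1.21% to 2.07% elsewhere. Results are therefore also given without this library. All 10 markers of stromal cells had enough counts to be tested, among them the receptor gene Pdgfrb with 5071 and 4571 counts with GFP and 5275 and 5527 with Cre. Their summed level was 1346 and 1287 CPM (read counts normalized to TMM-scaled library size) in GFP and 1167 and 1216 CPM in Cre, with 2 higher and 2 lower. Markers of macrophages were also present, with summed levels of 1897 and 1951 CPM in GFP and 2231 and 2222 CPM in Cre, and of these 8 genes 2 passed the test as higher and 1 as lower. Smooth muscle markers, led by Acta2, summed to 15002 and 14144 CPM in GFP and to 12649 and 13127 CPM in Cre, with 2 higher and 1 lower of 6. The 9 osteoblast markers summed to 114 and 107 CPM in GFP and to 118 and 120.0 CPM in Cre. Of the 5 that were tested, 2 were higher (Sp7, and Ibsp with 17 to 55 counts per library) and 1 was lower (Omd). Runx2 (log2 fold change 0.03) and Alpl (0.05) did not pass. Without GFP replicate 2 the log2 fold change of Sp7 went from 0.52 to 0.32. That of Ibsp went from 1.10 to 1.04 and that of Omd from -1.21 to -1.45. Bglap, Dmp1, Phex and Mepe missed the count filter, with Mepe at 0 in all libraries. Over all tested genes 3.74% were higher and 3.22% lower. The part of these cells in the results below was not tested, and in bulk RNA more cells of a type and more RNA per cell cannot be told apart.

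Collagen chains made up a larger share of the RNA in the Cre libraries. They took 3.04% and 2.83% of all counts in the GFP libraries and 3.52% and 3.63% in the Cre libraries. Of the counts of messenger RNA genes alone, which leaves out ribosomal RNA, they took 3.15% and 3.11% in GFP and 3.61% and 3.72% in Cre. The groups did not overlap on either measure, but with 2 libraries against 2 an exact two-sided permutation test cannot go below p = 0.33. The summed level was 5632 CPM higher in Cre on average, of which Col1a1 made up 53.4% and Col1a2 27.8%. Col1a1 alone went from 23.2% and 23.2% of all collagen counts in GFP to 27.7% and 28.3% in Cre.

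Of the 44 genes, 30 had enough counts to be tested. In Cre 7 of them rose (Col1a1, Col1a2, Col3a1, Col5a1, Col6a3, Col12a1 and Col18a1), 2 fell (Col2a1 and Col11a1) and 21 did not pass an adjusted p of 0.05 in edgeR's quasi-likelihood test. The 7 that rose were 23.3% of those tested, against 3.74% of all 14483 genes tested, and the 2 that fell were 6.67%, against 3.22%. The chains were chosen with earlier results of these data known, so these shares are a description. With library size alone as the scaling, 4 rose, beside 2.4% of all genes, and 2 fell, beside 1.26%, and over all genes the split moved from 542 higher and 467 lower to 347 higher and 183 lower. Abundant genes are called more often: of the 1926 genes with a mean of at least 100 CPM, a level chosen after the data were seen, 14.9% were called (9.66% higher and 5.24% lower), and of the 15 collagen chains at that level 6 rose and 2 fell. The median log2 fold change of the 30 tested chains was 0.06, and 16 of them lay above 0, beside a median of -0.0045 over all tested genes. In 14 chains both Cre libraries lay above both GFP libraries, in 10 they lay below, and in 6 the groups overlapped. Such separation held for 50% of all tested genes, with 24.5% above and 25.5% below. None of the 30 differed by as much as 2-fold.

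**Figure D1:**
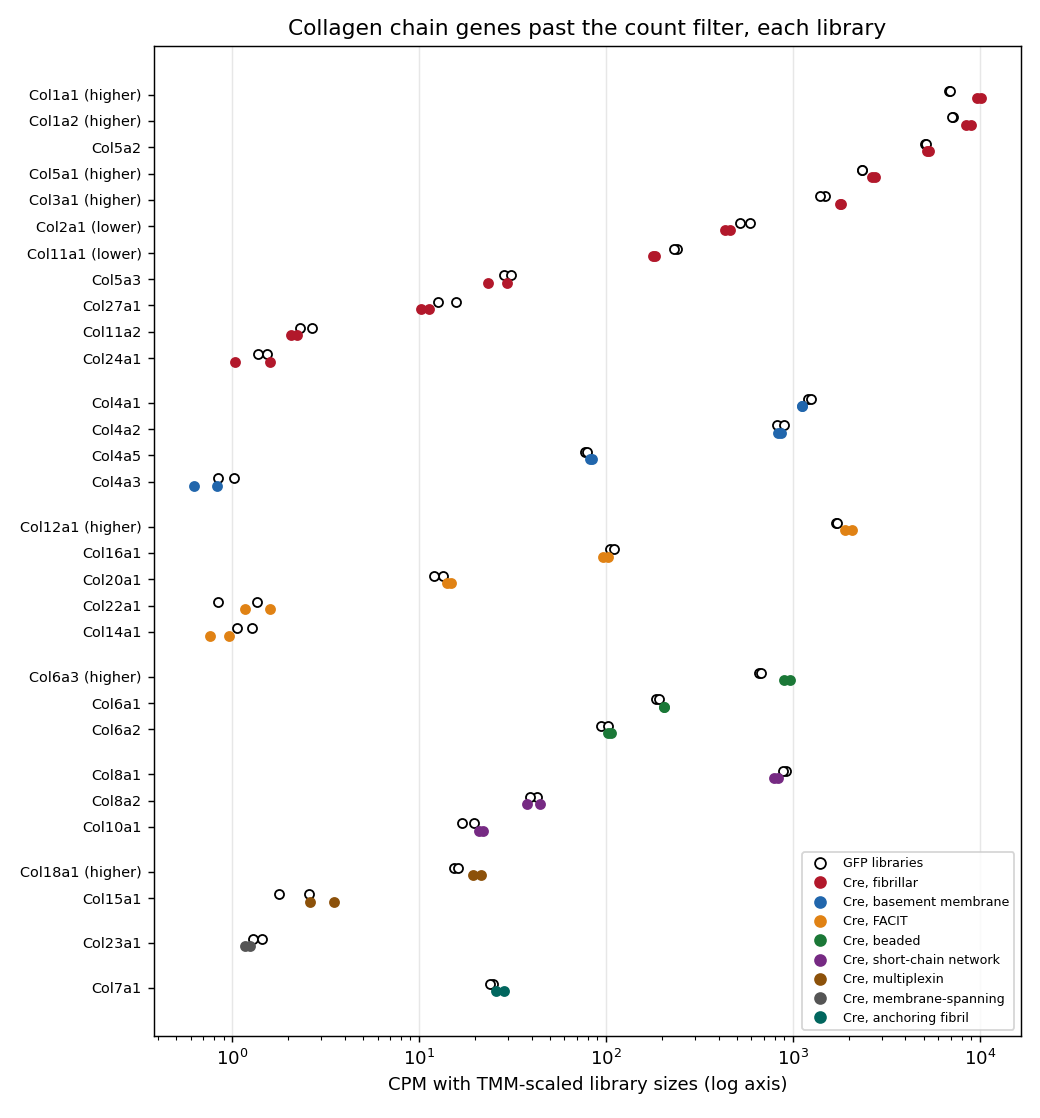
Level of each of the 30 tested collagen chain genes in every library, in CPM on a log axis, grouped by class and ordered by mean; open circles are the 2 GFP libraries and filled circles the 2 Cre libraries, and the words beside a name give the direction of those that passed the test. Chains span from under 1 CPM (Col4a3) to 10159.9 CPM (Col1a1 in Cre replicate 2), and the 2 groups do not overlap for any of the 9 that passed.

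With all 4 libraries, 9 chains were called, beside 6.97% of all genes. The number was 9 with median-of-ratios factors (6.99% of all genes) and limma-voom (7.19%), 8 of 23 with DESeq2 (3.55%), 7 with the replicate number as a block (5.72%) and 6 at an adjusted p of 0.01 (3.29%) or with library size alone (3.66%). It was 10 with a minimum of 1 CPM in 2 libraries (8.34%), messenger RNA genes alone (8.95%) and robust dispersion estimates (9.21%), and 1 without a low-count filter (0.118%). Without GFP replicate 2, edgeR and limma-voom called none of the chains. They called no other gene of the table either, so the loss was not particular to the chains. DESeq2 without that library gave an adjusted p for 16 chains and called 6 higher and 1 lower, beside 5.45% of all genes to which it gave one. Without GFP replicate 1 edgeR also called 0 chains, beside 0.0803% of all genes. Fold changes of Col1a1, Col6a3 and Col11a1, 3 of the called chains, stayed close to those of all 4 libraries: with GFP replicate 2 left out, log2 values were 0.53 for Col1a1 (adjusted p = 0.174 in edgeR), 0.49 for Col6a3 (adjusted p = 0.205) and -0.41 for Col11a1 (adjusted p = 0.205). Without Cre replicate 1, edgeR called 4 chains higher and 1 lower, beside 3.51% of all genes, and lost Col2a1, Col5a1, Col12a1 and Col18a1. Without Cre replicate 2 it called 3 higher and 2 lower, beside 2.53%, and lost Col1a2, Col5a1, Col12a1 and Col18a1.

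**Figure D2:**
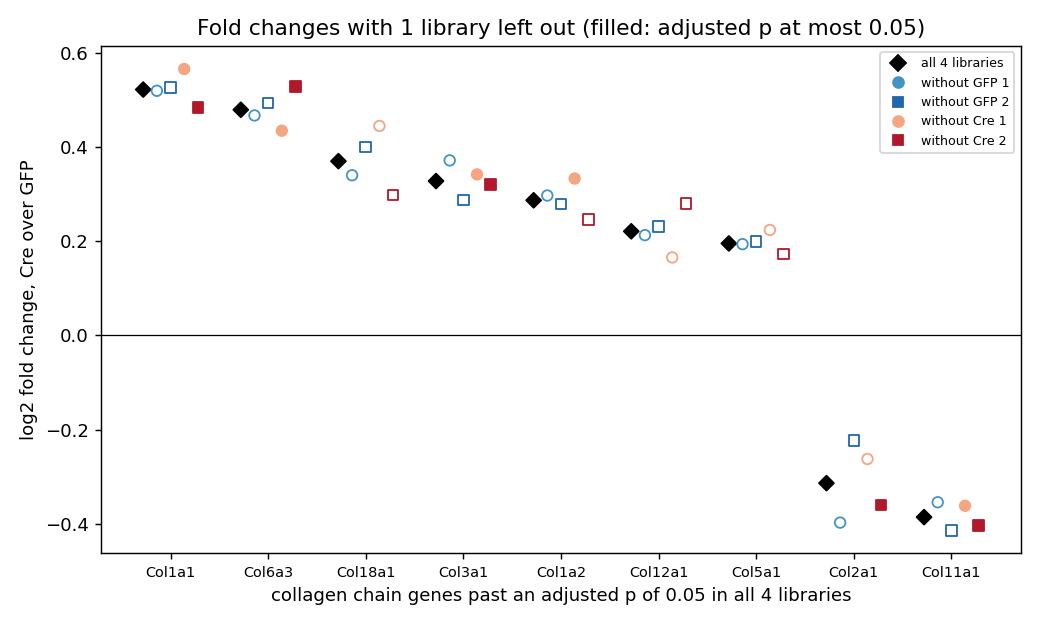
Log2 fold change (Cre over GFP) of the 9 collagen chain genes that passed the test in all 4 libraries, with all libraries (diamonds) and with each library left out in turn; filled symbols passed an adjusted p of 0.05. All symbols of a gene stay on the same side of 0, and those without either GFP library are open throughout.

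Fibrillar chains were the most abundant class and went in both directions. All 11 were tested: 4 rose, 2 fell and 5 did not pass, with a median log2 fold change of -0.14. Their summed level was 23779 and 23755 CPM in the GFP libraries and 28386 and 29683 CPM in the Cre libraries. The sum and the median differ in sign: the 4 chains that rose were among the 5 with the most counts in the class.

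Col1a1 (chr11:94936224-94953042, all gene positions from RefSeq, GRCm38.p6), one of the chains of type I collagen, had 6881 and 6910.4 CPM with GFP and 9641 and 10159.9 CPM with Cre. The groups lay far apart relative to the spread of the replicates, 6896 ± 20.6 CPM against 9901 ± 367 CPM (mean ± SD, n = 2 each), or 1.44-fold more (log2 fold change 0.52, standard error 0.06, edgeR adjusted p = 1.39e-07). Its partner Col1a2 (chr6:4505618-4541543) had 7164 and 7069 CPM with GFP and 8439 and 8923 CPM with Cre, a 1.22-fold rise (log2 fold change 0.29, standard error 0.06, edgeR adjusted p = 0.00123). Both Cre libraries lay above both GFP libraries for each chain, with the smaller rise in Col1a2. Both calls were lost with either GFP library left out. That of Col1a2 was also lost without Cre replicate 2 and without a low-count filter. Type I collagen normally holds 2 Col1a1 chains for 1 Col1a2 chain. Col1a1 had 0.961 and 0.978 counts per count of Col1a2 in the GFP libraries and 1.14 and 1.14 in the Cre libraries, a ratio that does not depend on library scaling. It was 1.18 times as high in Cre, and the groups did not overlap, although for this and the other ratios 2 libraries against 2 again allow no exact permutation p below 0.33. Per kilobase of transcript, the scale on which genes can be compared, the ratio was 0.866 and 0.882 in GFP and 1.03 and 1.03 in Cre by the longest coding transcript. By all annotated exons of the genes, a length chosen after the data were seen, it was 1.82 and 1.85 in GFP and 2.16 and 2.16 in Cre, so the level of one chain against the other depends on the length used, and the fold between the groups does not. These were the most abundant chains of the family on that scale, with means of 1163 CPM per kb (Col1a1) and 1331 CPM per kb (Col1a2) in GFP and 1670 and 1623 CPM per kb in Cre. These levels use the longest coding transcript, by which Col1a2 came first over the 4 libraries. By all annotated exons Col1a1 came first.

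Col3a1 (chr1:45311538-45349706), the chain of type III collagen, which forms thin fibrils together with type I, had 1478 and 1393 CPM with GFP and 1792 and 1811 CPM with Cre (log2 fold change 0.33, standard error 0.06, edgeR adjusted p = 0.000822). Both Cre libraries were higher, and its ratio to Col1a1 was lower in Cre, at 0.186 and 0.178 counts per count of Col1a1 against 0.215 and 0.202 in GFP. The ratios of the groups did not overlap.

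Type V collagen sits inside type I fibrils and helps to start them. Col5a1 (chr2:27886381-28039510) had 2350.0 and 2356 CPM with GFP and 2652 and 2736 CPM with Cre, a 1.14-fold rise (log2 fold change 0.20, edgeR adjusted p = 0.0422) that was lost with library size alone (adjusted p = 0.119) and without any 1 of the 4 libraries. Its partner Col5a2, the third most abundant chain per kilobase, did not pass: it had 5097 and 5161 CPM with GFP and 5214 and 5368 CPM with Cre, with a log2 fold change of 0.04 and a 95% interval from -0.07 to 0.16. Col5a1 had 0.461 and 0.457 counts per count of Col5a2 in GFP and 0.509 and 0.510 in Cre. The ratios of the 2 groups did not overlap. Col5a3, a further chain of this type, was far lower at 28.5 and 31.2 CPM in GFP and 23.3 and 29.4 CPM in Cre, and these groups overlapped (log2 fold change -0.18, 95% interval from -0.38 to 0.03).

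The 2 chains that fell are best known from cartilage. Col11a1 (chr3:114030479-114220756), which belongs to the thin fibrils of cartilage and also occurs elsewhere, had 241 and 231 CPM with GFP and 178 and 183 CPM with Cre (log2 fold change -0.39, standard error 0.06, edgeR adjusted p = 0.00016). Both Cre libraries lay below both GFP libraries by more than the replicates differed. Col2a1 (chr15:97975602-98004724), the main fibrillar chain of cartilage, had 520.0 and 586 CPM with GFP and 431 and 459 CPM with Cre (log2 fold change -0.31, standard error 0.07, edgeR adjusted p = 0.00297). The GFP libraries differed from each other by more than the Cre libraries did. They also differed by more than the gap between the lower GFP and the higher Cre library. The log2 fold change was -0.22 without GFP replicate 2 and -0.40 without GFP replicate 1. The call was also lost without Cre replicate 1. Relative to Col1a1, the count of Col2a1 was 0.0756 and 0.0849 in GFP and 0.0447 and 0.0452 in Cre. There were 0.463 and 0.393 counts of Col11a1 per count of Col2a1 in GFP and 0.414 and 0.398 in Cre, a ratio in which the groups overlapped. Col11a2, a further chain of type XI, was low, with 2.66 and 2.30 CPM in GFP and 2.21 and 2.07 CPM in Cre, and did not pass (95% interval of the log2 fold change from -0.74 to 0.31).

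The markers of cartilage cells had at most 138 counts each in any library. Of the 8 chondrocyte markers 7 were in the table, and together they had 14.3 and 11.8 CPM in GFP and 10.0 and 9.61 CPM in Cre. The aggrecan gene Acan had 0 to 2 counts per library, Hapln1 had 0 or 1, and Lect1 was at 0 in all libraries. Sox9, the transcription factor of cartilage, had 10.5 and 9.71 CPM in GFP and 8.58 and 7.39 CPM in Cre (log2 fold change -0.34, edgeR adjusted p = 0.151). The other tested marker, Matn3, had a log2 fold change of -0.84 (edgeR adjusted p = 0.136). Type IX collagen, which coats cartilage fibrils, was low too: Col9a1 and Col9a2 had 0 or 1 count per library and Col9a3 had 8 to 11. The 3 counts taken as the floor correspond to between 0.207 and 0.255 CPM, so Col9a1 and Col9a2 were not detectable above it at this depth. Cre libraries were lower in the summed chondrocyte markers, most of which was Sox9, as well as in Col2a1 and Col11a1. Neither of the tested markers passed, and the part of the markers' cells in the falls was not tested.

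The remaining fibrillar chains were low. Col27a1, whose chain occurs in developing cartilage, had 15.7 and 12.6 CPM in GFP and 11.3 and 10.3 CPM in Cre, with a log2 fold change of -0.40 and a 95% interval from -0.66 to -0.13. It missed the threshold (edgeR adjusted p = 0.061) and passed it with messenger RNA genes alone (adjusted p = 0.0424), with a filter of 1 CPM in 2 libraries (adjusted p = 0.0483) and with robust dispersion estimates (adjusted p = 0.0294). Col24a1 had 15 to 23 counts per library, with overlapping groups.

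**Figure D3:**
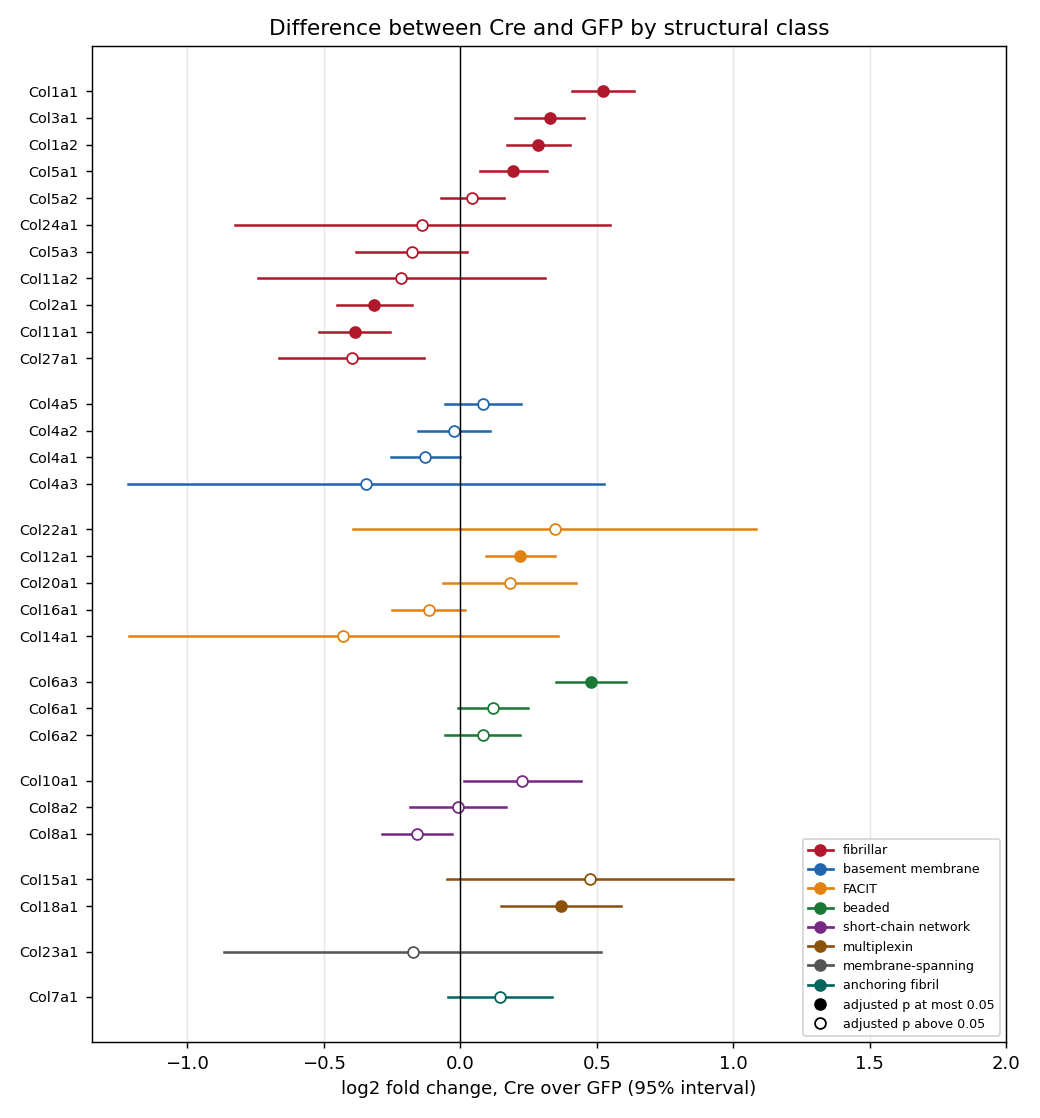
Log2 fold change (Cre over GFP) with its 95% interval for the 30 tested collagen chain genes, grouped by class; filled circles passed an adjusted p of 0.05. Fibrillar chains lie on both sides of 0, from 0.52 (Col1a1) to -0.40 (Col27a1), no basement membrane chain is filled, and the low chains have wide intervals.

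Of 6 beaded chains of type VI collagen 3 were tested, and 1 rose. Col6a3 (chr1:90766860-90844001), the largest of these chains, had 659.9 and 671 CPM with GFP and 959.8 and 896 CPM with Cre, 666 ± 8.21 against 928 ± 45.4 CPM (mean ± SD, n = 2 each). This 1.39-fold rise was the second largest in the family among those that passed (log2 fold change 0.48, standard error 0.06, edgeR adjusted p = 5.42e-06). The chains with which it assembles did not pass. Col6a1 had 185 and 192 CPM with GFP and 204 and 205 CPM with Cre (log2 fold change 0.12, 95% interval from -0.01 to 0.25), without overlap between the groups. Col6a2 had 94.0 and 103 CPM with GFP and 102 and 106 CPM with Cre (log2 fold change 0.08, 95% interval from -0.05 to 0.22), and its groups overlapped. Col6a3 had 3.58 and 3.495 counts per count of Col6a1 in GFP and 4.71 and 4.36 in Cre, 1.28 times as high. The ratio of Col6a1 to Col6a2 overlapped between the groups, at 1.96 and 1.87 in GFP and 1.99 and 1.94 in Cre. Per kilobase, Col6a3 was also the most abundant of these chains, with a mean of 65.9 CPM per kb in GFP and 91.8 CPM per kb in Cre. The alternative chains Col6a4, Col6a5 and Col6a6 had between 0 and 4 counts per library and were not tested.

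**Figure D4:**
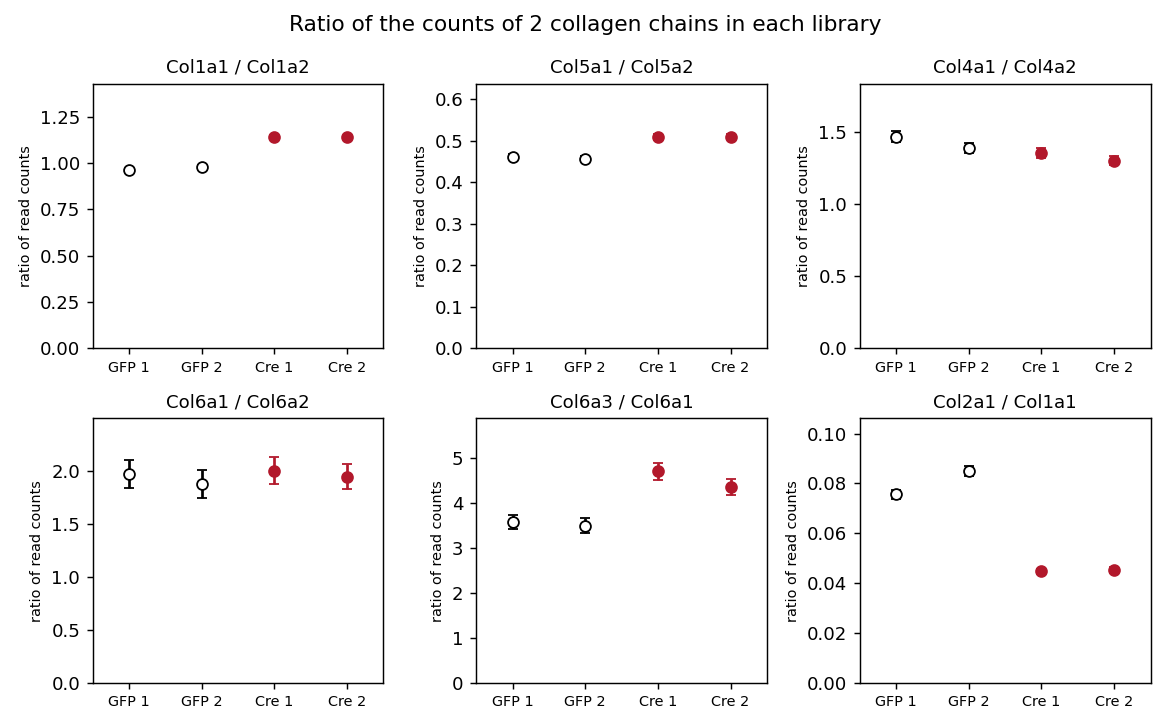
Ratio of the read counts of a pair of collagen chains in each library, for 6 pairs, with axes from 0; bars are exact 95% binomial intervals that cover counting error only, open circles are GFP and filled circles Cre. Cre libraries lie above GFP for Col1a1 to Col1a2, Col5a1 to Col5a2 and Col6a3 to Col6a1, below for Col4a1 to Col4a2 and Col2a1 to Col1a1, and overlap for Col6a1 to Col6a2.

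No basement membrane chain passed. Of 6 type IV chains 4 were tested, and their summed level was 2113 and 2224 CPM in GFP and 2040 and 2072 CPM in Cre. Col4a1, the most abundant of them per kilobase (185 CPM per kb in GFP and 170 CPM per kb in Cre), had 1209 and 1244 CPM with GFP and 1123 and 1123 CPM with Cre. Its Cre libraries lay below its GFP libraries, with a log2 fold change of -0.13 and a 95% interval from -0.25 to -0.0017 (edgeR adjusted p = 0.231). Col4a2, which starts next to Col4a1 on the opposite strand of chromosome 8 and assembles with it, had 825 and 898 CPM with GFP and 831 and 865 CPM with Cre, with overlap (log2 fold change -0.02, 95% interval from -0.15 to 0.11). There were 1.47 and 1.39 counts of Col4a1 per count of Col4a2 in GFP and 1.35 and 1.30 in Cre. Exons of the pair overlap by 22 bases, 0.295% of those of Col4a1. Col4a5, which occurs in other basement membranes together with Col4a6, had 76.9 and 79.5 CPM in GFP and 83.9 and 81.8 CPM in Cre (95% interval of the log2 fold change from -0.05 to 0.22). Col4a3 had 9 to 12 counts per library, and Col4a4 and Col4a6, with 2 to 5 and 7 to 13 counts, were not tested.

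Among the FACITs 1 chain dominated. Col12a1 (chr9:79598987-79721141), which decorates type I fibrils in tendon and bone, had 1693 and 1714 CPM with GFP and 2069 and 1902 CPM with Cre, a 1.17-fold rise (log2 fold change 0.22, standard error 0.06, edgeR adjusted p = 0.0264). The Cre libraries differed from each other by about as much as the lower of them differed from GFP. The call was lost with library size alone (adjusted p = 0.0811) and without any 1 of the 4 libraries. Col16a1 had 105 and 110.1 CPM with GFP and 97.0 and 102 CPM with Cre and did not pass (95% interval of the log2 fold change from -0.25 to 0.02). Col20a1 had 13.5 and 12.1 CPM in GFP and 14.9 and 14.2 CPM in Cre and did not pass either. Col14a1 and Col22a1 had 11 to 23 counts per library, and Col19a1 and the 3 type IX chains were not tested. Of the 9 FACITs, 5 were tested and 1 rose.

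Of the other classes, the short-chain network collagens did not pass. Col8a1, a chain of vessel walls and other matrices and the most abundant of the class per kilobase (177 CPM per kb in GFP and 159 CPM per kb in Cre), had 918 and 890.2 CPM with GFP and 829 and 791 CPM with Cre. Its groups did not overlap, and the log2 fold change was -0.16 with a 95% interval from -0.29 to -0.03 (edgeR adjusted p = 0.128). Its partner Col8a2 had 43.0 and 39.4 CPM with GFP and 37.8 and 44.4 CPM with Cre, with overlap. Col10a1, the marker of hypertrophic cartilage, had 19.6 and 16.9 CPM in GFP and 21.9 and 21.0 CPM in Cre (log2 fold change 0.23, 95% interval from 0.01 to 0.44, edgeR adjusted p = 0.206).

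Multiplexins are collagens that carry heparan or chondroitin sulfate. Col18a1 (chr10:77052178-77166530), whose C-terminal fragment is endostatin, had 15.4 and 16.1 CPM with GFP and 19.4 and 21.4 CPM with Cre and rose 1.29-fold (log2 fold change 0.37, standard error 0.11, edgeR adjusted p = 0.0322). DESeq2 did not call it (adjusted p = 0.357), nor did edgeR with library size alone (adjusted p = 0.0645) or without any 1 of the 4 libraries. Col15a1 had 21 to 51 counts per library, with a log2 fold change of 0.48 and a 95% interval from -0.05 to 1.00. Col7a1, the chain of the anchoring fibrils of skin, had 24.9 and 24.0 CPM in GFP and 25.7 and 28.4 CPM in Cre (95% interval from -0.05 to 0.34). Of the 4 membrane-spanning collagens Col23a1 was tested, at 1.29 and 1.45 CPM in GFP and 1.246 and 1.17 CPM in Cre (95% interval from -0.87 to 0.52), while Col13a1, Col17a1 and Col25a1 had 0 to 7. Col26a1 and Col28a1 had 0 to 4 counts. In all, the 14 genes that were not tested had at most 13 counts in any library, and no statement on a change can be made for them at this depth.

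**Figure D5:**
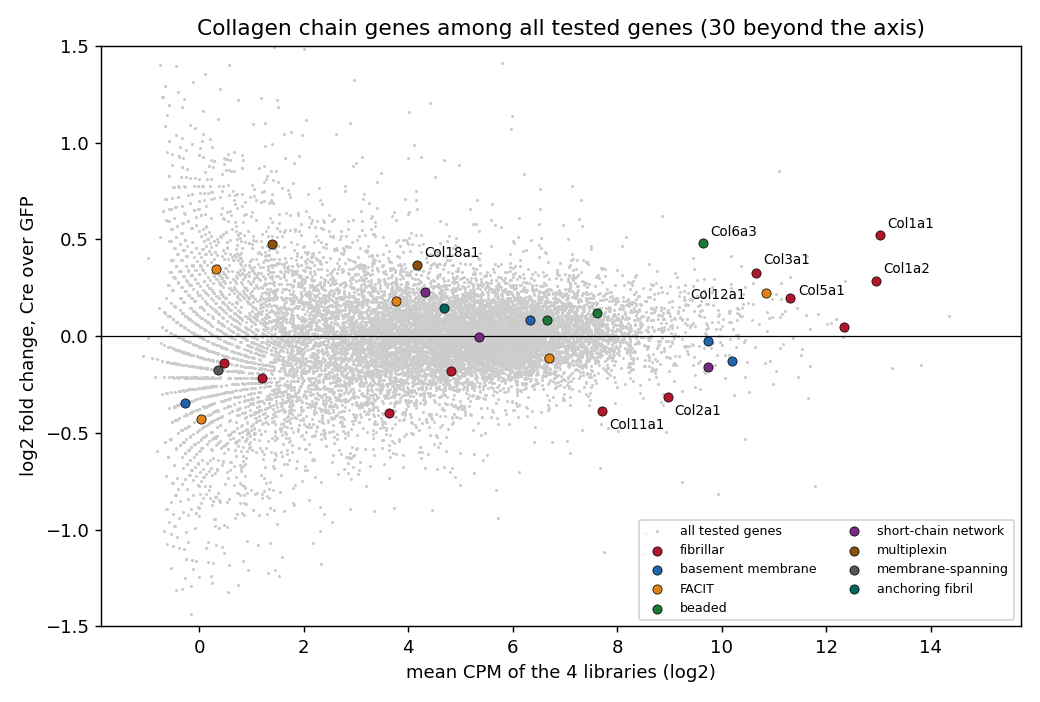
Log2 fold change (Cre over GFP) against mean level (log2 CPM) for all 14483 tested genes (grey) and the 30 tested collagen chain genes (coloured by class), with names at the 9 that passed; 30 genes lie beyond the axis. Of the named chains, Col1a1, Col1a2, Col5a1, Col12a1, Col3a1, Col6a3 and Col18a1 lie above 0, and Col2a1 and Col11a1 lie below.

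Collagen chains are long and rich in G and C. The 30 tested chains had a median transcript length of 6084 bases and a GC content of 56.2%, against 3015 bases and 50.05% over the 13958 tested genes with an annotated transcript. The 1648 genes in the middle 50% of the chains' length range had a median log2 fold change of -0.06, and the 5334 genes in that of their GC content one of 0.05. The part of length and GC content in the results was not tested.

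Collagen chains are hydroxylated, folded, trimmed and cross-linked by a set of dedicated proteins. Lists on these steps and on fibril-associated proteins, collagen receptors and collagen degradation, 7 in all, held 58 tested genes. Of these genes 11 rose and 5 fell, with a median log2 fold change of 0.09. This is 27.6%, against 6.97% of all tested genes (3.74% higher and 3.22% lower) and 14.9% of those with a mean of at least 100 CPM. Many of the listed genes are at that level, and the part of level in these calls was not tested. These lists too were chosen with earlier results of these data known, so the share is a description. Among 12 genes of prolyl and lysyl hydroxylation and glycosylation 4 rose and 1 fell. The prolyl 4-hydroxylase gene P4ha2 went from 229 to 317 CPM (log2 fold change 0.47, edgeR adjusted p = 9.91e-06) and the lysyl hydroxylase gene Plod1 from 149 to 194 CPM (0.38), while P4ha3 fell from 105 to 80.5 CPM (-0.39). Of 11 genes of folding and export only Fkbp10, a chaperone of type I procollagen, rose (0.21). Of 7 genes of propeptide removal 3 rose, among them the N-proteinase gene Adamts2 (0.24) and the C-proteinase gene Bmp1 (0.22), while the related Tll1 fell (-0.40). Of 5 genes of cross-linking Loxl1 rose (0.29) and 4 did not pass, among them Lox (-0.16), the most abundant. The median log2 fold change of this list was -0.098. Its summed level was lower in Cre, at 5159 and 5064 CPM against 5600 and 5407 CPM in GFP. Among 6 fibril-associated proteins Sparc (0.29) and Thbs2 (0.28) rose. Of 8 collagen receptors Ddr2, a kinase that binds fibrillar collagen, fell (-0.30). Of 9 genes of collagen degradation and its inhibitors Timp3 (-0.78) and Mmp9 (-0.46) fell, and Mmp9 stood at -0.14 without GFP replicate 2. As with the chains, edgeR called none of the tested genes without GFP replicate 2 (2197 at an unadjusted p under 0.05) and 12 without GFP replicate 1.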

How the data were processed

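RNA sequencing counts of 4 libraries were used, 2 with GFP and 2 with Cre. The authors deposited raw read counts per gene as whole numbers. The aligner was HISAT2 and the genome GRCm38, per the submitters' processing notes. Per the labels' protocols, a TruSeq kit and 1 µg of RNA went into each library. For the counting step, program, annotation and strand setting were not given in the sources used here; overlapping genes are therefore uncertain. Of the tested chains, Col4a3 shared the largest part of its exon bases with another gene, 5.65%.

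Counts were tested with edgeR 4.0.16 in R 4.3.3: filterByExpr (minimum count 10, minimum total 15), TMM scaling, quasi-likelihood F-test on group alone, and Benjamini-Hochberg adjustment over 14483 genes at a threshold of 0.05. CPM values use TMM-scaled library sizes. Intervals are 95% and are not adjusted for the number of genes tested. Like the floor of 3 counts, those of count ratios cover counting error only. Levels per kb use the longest coding transcript in GENCODE M21. Alternatives were limma-voom (limma 3.58.1), DESeq2 1.42.0, other scalings, filters, dispersions and thresholds, messenger RNA genes alone, the replicate number as a block and each library left out.

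The members, classes and lists were chosen with earlier results of these data known. Named are all members, in full those past the threshold, the most abundant chain of a class and the chains that assemble with a called one, and up to 3 called genes per pathway list with the smallest adjusted p. The marker lists of adipocytes, endothelial, Schwann and lymphoid cells had summed levels of 90.1 to 99.3, 7.74 to 10.1, 1.90 to 2.55 and 0 to 0.152 CPM per library, and none of their tested genes passed.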

Additional observations from a re-analysis of the deposited data

How the results depend on the processing

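Against 7 chains higher and 2 lower, an adjusted p of 0.01 gave 4 and 2. Library size alone gave 4 and 2, and no low-count filter 1 (Col1a1) and 0. Without that filter 13 of 44 chains had an unadjusted edgeR p under 0.05, beside 2762 of 25476 genes. Leaving out 1 library gave 0 to 4 higher and 0 to 2 lower in edgeR. Without GFP replicate 2, alternatives chosen after the data were seen gave 6 higher and 1 lower in DESeq2 and 0 and 0 in limma-voom. With messenger RNA genes alone, robust dispersion and a minimum of 1 CPM in 2 libraries, 7 were higher and 3 lower, and with median-of-ratios factors and limma-voom 7 and 2. Over all genes, 1009 calls became 477 at an adjusted p of 0.01, 530 with library size alone, 378 in DESeq2, 30 without a low-count filter and 0 to 516 with 1 library left out. Without GFP replicate 2, DESeq2 called 198 and limma-voom 0 (2226 at an unadjusted p under 0.05), edgeR 0 (2197 at an unadjusted p under 0.05). The causes were not tested.

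The replicate block gave 5 higher (without Col5a1, adjusted p = 0.0837, and Col12a1, adjusted p = 0.0554) and 2 lower chains, and 829 calls over all genes. Nothing in the labels pairs the libraries beyond the number: deviations of GFP replicate 1 and Cre replicate 1 from their group means had a correlation of -0.0089 across 14483 genes, which are not independent replicates, and of 0.41 across the 30 tested chains alone.

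The share of counts in collagen chains was higher in Cre by 0.637 percentage points, 0.536 over messenger RNA counts and 0.528 to 0.745 with 1 library left out. The 9 called chains kept their sign under the alternatives run. Among chains that did not pass, Col4a2 turned to 0.012 with library size alone and, without GFP replicate 2, to 0.048 in DESeq2 and 0.041 in limma-voom, and with 1 library left out it ranged from -0.083 to 0.041. Col8a2 turned to 0.025 with library size alone and 0.0023 without a low-count filter, and ranged from -0.13 to 0.11 with 1 library left out. Col24a1 ranged from -0.47 to 0.14 with 1 library left out. For Col4a3, Col14a1, Col22a1, Col23a1, Col24a1, Col11a2 and Col15a1, all low, the 95% interval was over 1 unit wide on the log2 scale. With 1 library left out, the lone library of a group was assumed to vary like the other group.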
